A study of Homo sapiens with 4 samples.

Results

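The genes described here encode core subunits of the 2 Polycomb repressive complexes. Their peaks were found by gene symbol among the acetylated histone H3 peaks of H929, an established cell line from a human multiple myeloma. The 9 names searched were BMI1, the readthrough gene COMMD3-BMI1, RING1, RNF2 and PCGF3 of Polycomb repressive complex 1 (PRC1), and EZH1, EZH2, EED and SUZ12 of Polycomb repressive complex 2 (PRC2). They took 8 of 9780 peaks in cells that overexpressed AIMP1 and 4 of 4828 peaks in wild-type cells. AIMP1 is a scaffold subunit of the multi-tRNA synthetase complex. Both groups were H929 cells, fixed with 1% formaldehyde, and the immunoprecipitation used an acetyl-H3 antibody. How AIMP1 was overexpressed, and whether the cells were 1 clone, is not given in the sources used here. There was 1 acetyl-H3 library per group, so no difference between the groups has a replicate check or a test. The set was selected on peaks already seen in these data, among them the width and fold of the COMMD3-BMI1 peak, so all counts and values of these genes are descriptions.

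PRC2 places methyl groups on lysine 27 of histone H3, and PRC1 attaches ubiquitin to histone H2A; both marks go with silent genes, and the complexes are best known for keeping developmental genes off. Acetylated histone H3 is a mark of active promoters and enhancers, so a peak at one of these genes marks the chromatin of the gene that encodes the silencer. It does not show where the silencer acts, which was not measured here. BMI1 and EZH2 have been studied as drug targets in multiple myeloma.

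Depth of the libraries is unknown, and the lists differed in size and make-up. In the overexpression list 84.9% of peaks (exact 95% interval 84.1 to 85.6) were at promoters, which the authors' annotation counts up to 3 kb from a transcription start site, against 36.0% (34.7 to 37.4) in the wild-type list. The intervals cover counting error only. Median peak width was 1621 bp in the overexpression list and 828.5 bp in the wild-type list. Each peak's fold enrichment and p come from the authors and are read here only within a list. Below, a gene is called overexpression-only if a promoter peak was annotated to it after AIMP1 overexpression but not in wild type, wild-type-only in the opposite case, and shared if it had one in each. Of 10 plasma cell markers, 6 were overexpression-only (SDC1, TNFRSF17, XBP1, PRDM1, IRF4 and JCHAIN), MZB1 was shared, and CD38, SLAMF7 and FCRL5 had no promoter peak, where 28.5% of 19970 protein-coding genes were overexpression-only and 5.39% shared. By annotated peaks of any place 5 of these markers had peaks under both conditions, where 9.28% of coding genes did. After overexpression alone 2 had them (26.8% of coding genes), and in wild type alone only SLAMF7 (5.21%). SDC1, XBP1, PRDM1 and IRF4 were in the first of these classes through wild-type peaks outside promoters. No promoter peak was annotated to any of 5 T cell, 5 monocyte and 5 erythroid markers in either list. By annotated peaks of any place only CD3E, a T cell marker, had peaks, and these were in wild type alone. The stronger by p was in a 3′ UTR, 4029 bp from a start (fold 3.35, p 1.14e-06).

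The promoters of the readthrough gene and of BMI1 are shown because both lie inside the widest peak of the overexpression list. Those of EZH2 and PCGF3 had the highest folds among the other names with annotated peaks, and those of EZH1 and RNF2 the lowest, taking the higher peak of a gene with several. Each sequence is the 250 bases before the start of the gene, from RefSeq on GRCh38.p14, written 5′ to 3′ on the strand of the gene, and for genes with several listed starts the first is shown. Capitals mark matches, on either strand, to the E-box CACGTG, the GC box GGGCGG or the CCAAT box CCAAT, and neighbouring GC boxes can overlap.
COMMD3-BMI1, chr10:22316138-22316387, plus strand: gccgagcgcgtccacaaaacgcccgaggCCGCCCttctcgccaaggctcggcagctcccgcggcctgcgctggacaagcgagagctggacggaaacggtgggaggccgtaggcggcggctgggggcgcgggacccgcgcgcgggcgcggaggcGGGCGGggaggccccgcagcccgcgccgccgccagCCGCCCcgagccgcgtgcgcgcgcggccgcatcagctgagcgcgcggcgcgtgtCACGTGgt
BMI1, chr10:22320849-22321098, plus strand: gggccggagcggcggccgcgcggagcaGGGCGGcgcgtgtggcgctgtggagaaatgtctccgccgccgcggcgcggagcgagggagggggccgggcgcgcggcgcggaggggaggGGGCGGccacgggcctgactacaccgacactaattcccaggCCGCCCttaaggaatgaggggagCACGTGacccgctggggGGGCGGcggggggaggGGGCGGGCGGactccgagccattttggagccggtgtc
EZH2, chr7:148884292-148884541, minus strand: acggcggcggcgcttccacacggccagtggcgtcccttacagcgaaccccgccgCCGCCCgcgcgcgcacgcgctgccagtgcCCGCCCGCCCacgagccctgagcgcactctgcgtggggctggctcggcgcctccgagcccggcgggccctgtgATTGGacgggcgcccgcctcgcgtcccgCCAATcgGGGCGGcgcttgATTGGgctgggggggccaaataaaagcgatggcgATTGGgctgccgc
PCGF3, chr4:705582-705831, plus strand: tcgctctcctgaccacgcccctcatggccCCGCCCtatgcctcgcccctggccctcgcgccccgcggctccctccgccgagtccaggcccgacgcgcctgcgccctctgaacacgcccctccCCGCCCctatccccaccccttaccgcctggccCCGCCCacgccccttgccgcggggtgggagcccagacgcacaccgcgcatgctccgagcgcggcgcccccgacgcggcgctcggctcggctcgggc
EZH1, chr17:42745041-42745290, minus strand: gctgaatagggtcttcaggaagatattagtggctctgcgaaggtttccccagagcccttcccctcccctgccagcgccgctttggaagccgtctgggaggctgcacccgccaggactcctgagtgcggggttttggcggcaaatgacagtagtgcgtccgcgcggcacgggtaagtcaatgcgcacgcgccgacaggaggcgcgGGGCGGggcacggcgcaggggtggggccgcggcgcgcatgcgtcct
RNF2, chr1:185045308-185045557, plus strand: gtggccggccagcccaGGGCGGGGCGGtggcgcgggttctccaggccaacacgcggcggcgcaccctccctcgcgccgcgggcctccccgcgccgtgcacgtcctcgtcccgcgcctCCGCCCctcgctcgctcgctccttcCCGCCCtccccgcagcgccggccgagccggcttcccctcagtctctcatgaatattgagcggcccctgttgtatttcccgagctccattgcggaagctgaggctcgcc

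All 9 genes had an entry in the RefSeq promoter table, with 11 starts in all. These windows were rich in CpG dinucleotides, the usual make-up of promoters that are active in many tissues. They held 11 to 54 CpGs, and 10 of 11 held more than the median of 11 over 34943 windows of all genes. The exception was EED, which held 11 CpGs with 51.2% G and C bases. A GC box, the sequence that SP1 binds, was in 10 of 11 windows, again all but that of EED, against 42.5% of all windows. The E-box, the sequence of MYC and its partners, was in the window of COMMD3-BMI1 and in the first of BMI1, and in 6.32% of all windows. A CCAAT box was in the first window of EZH2, with 4 copies, and in those of EED and SUZ12, with 1 copy each, and in 32.0% of all windows. The E2F sequences TTTCGCGC and TTTGGCGC were in none of the 11 windows, and in 0.429% and 0.547% of all windows. These are matches of letters and show no binding.

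The widest acetyl-H3 peak of the overexpression list covered BMI1 from end to end. BMI1, also named PCGF4, is the RING finger partner that stimulates the ubiquitin ligase of canonical PRC1. The peak lay on chromosome 10 from 22308584 to 22334220 as the deposited list gives it, was 25637 bp wide, and had a fold enrichment of 14.13 and a p of 2.15e-83. It was 15.8 times as wide as the median peak of its list. Its fold ranked 335 and its p ranked 38 among the 9780 peaks. The authors annotated it to COMMD3-BMI1, whose transcripts run from the upstream neighbour COMMD3 into BMI1, and no peak in either list was annotated to BMI1 itself. The lists give 1 gene per peak, and the name BMI1 had no row although the gene lay inside the peak.

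The peak began 7804 bp before the start shared by COMMD3 and the readthrough gene and ended 2514 bp past the end of BMI1 in RefSeq. It held all 3919 bp of COMMD3, a gene of the COMMD family of copper metabolism domain proteins, and all 10608 bp of BMI1. Its summit was 380 bp before the COMMD3-BMI1 start, and 5091 bp before the first RefSeq start of BMI1. The summit was thus nearer to the start of COMMD3 than to that of BMI1. Of 14315 protein-coding genes at least 10 kb long, 2 lay wholly within 1 overexpression peak, and these were BMI1 and COMMD3-BMI1. None did so within a wild-type peak. That count was made after the width was known and restates it in terms of genes.

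The overexpression peaks next in width, as called, were narrower. That of RUNX2, a transcription factor of bone formation, was 18261 bp wide with a fold of 27.15. That of RRM2, a subunit of ribonucleotide reductase, was 17061 bp with 14.44. CDH9, a cadherin gene, had 16258 bp with 9.43, and PRDM1, the transcription factor of plasma cell differentiation, had 15465 bp with 15.72. This PRDM1 peak began at 106095627, directly after another PRDM1 peak that ended at 106095600 (9324 bp, fold 17.29). Joined, the 2 PRDM1 peaks would be only slightly narrower than the COMMD3-BMI1 peak. As called, the COMMD3-BMI1 peak was 1.4 times as wide as the second and 1.66 times as wide as the fifth. Its rank rests on how peaks are joined: with overexpression peaks merged when at most 12500 bp apart it grew to 36211 bp and ranked 36 among 7951 regions, of which the widest had 73587 bp. Merging at 1 kb left it unchanged and first of 9291, with the joined PRDM1 peaks close behind.

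**Figure D1:**
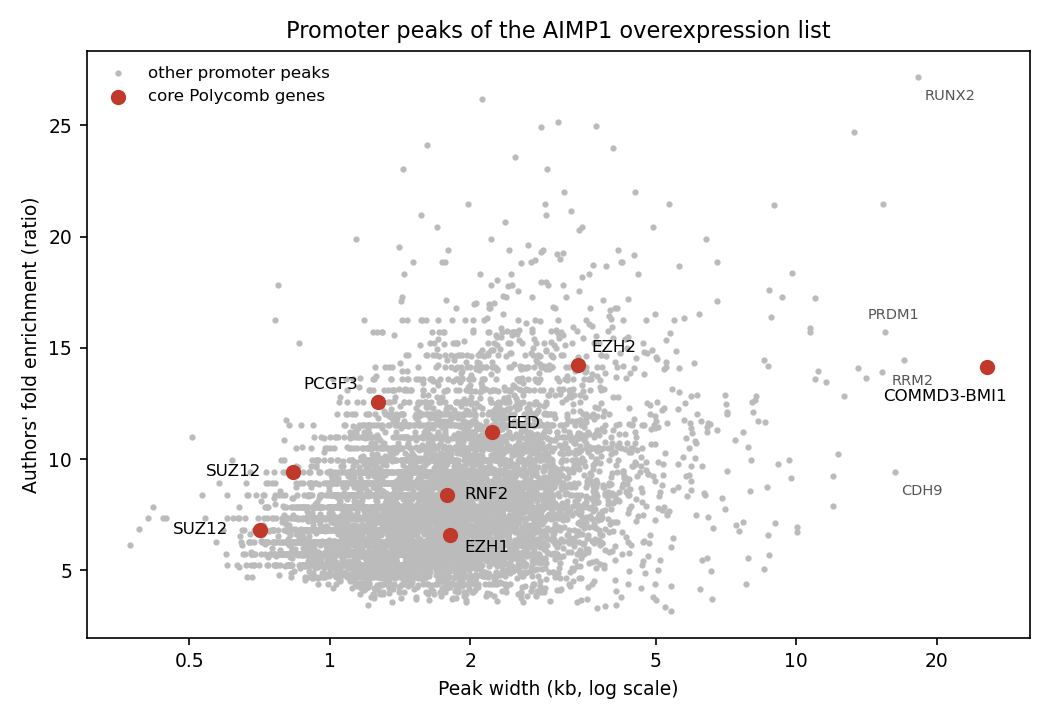
Width in kb on a log scale against the authors' fold enrichment for each promoter peak of the overexpression list. Peaks annotated to the 9 core names are in red, and the genes of the 4 next widest peaks are named in grey. All other promoter peaks are grey, also those of further Polycomb genes. The COMMD3-BMI1 peak is the widest as called, at 25637 bp, while its fold of 14.13 is close to the 14.25 of EZH2. The 2 SUZ12 peaks are among the narrowest.

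No wild-type peak touched this domain of 25637 bp, and the nearest, annotated to SPAG6, was 9537 bp past its edge. In a window reaching 250 kb to either side, 525637 bp in all, the overexpression list had 8 peaks that covered 57702 bp, with a mean fold of 10.7. The wild-type list had 6 peaks that covered 8292 bp, with a mean fold of 3.53. The overexpression sum includes the 25637 bp of the domain, so it partly restates the width by which the locus was picked. A sum over peaks called separately in each library also moves with how much was called.

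Within this window the next overexpression peak was 1591 bp downstream of the domain. It was annotated to SPAG6, a gene of the sperm tail and of cilia, with a width of 8983 bp, a fold of 21.44 and a p of 2.24e-159, both stronger than at the domain itself. Only this peak and 1 farther on overlapped a wild-type peak. The wild-type peak at SPAG6 (22343758 to 22344719) was 962 bp wide with fold 3.07 and p 0.000236. On the other side, 49053 bp upstream of the domain, lay a peak of the non-coding gene LOC100130992 with a width of 9818 bp, a fold of 18.36 and a p of 5.73e-184. No wild-type peak overlapped it. Another overexpression peak given to the same gene (2113 bp, fold 3.71) lay 40118 bp from the domain, and one given to EBLN1, a gene derived from a bornavirus, lay 77526 bp from it (fold 7.25).

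Farther downstream, overexpression peaks classed as intronic (fold 5.85, given to SPAG6 but past its end in RefSeq) and as lying between genes (4.87 for one given to SPAG6, 10.3 for one given to PIP4K2A, a phosphoinositide kinase) were 102519 to 142505 bp from the domain. The wild-type list also had peaks given to SPAG6 at 59869, 94436 and 129346 bp (folds 3.2, 3.1 and 4.89), to PIP4K2A at 203402 bp (3.59) and to EBLN1 at 132669 bp upstream (3.35). The one at 129346 bp overlapped the overexpression peak of fold 4.87. Within 50 kb of the COMMD3-BMI1 start, overexpression peaks covered 36698 bp, against a median of 1400.5 bp over 15812 protein-coding genes with a RefSeq start. The COMMD3-BMI1 peak gave 25637 bp of this cover, so the comparison largely restates the width by which the locus was picked. Wild-type peaks covered 962 bp within the same distance, against a median of 0 bp.

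**Figure D2:**
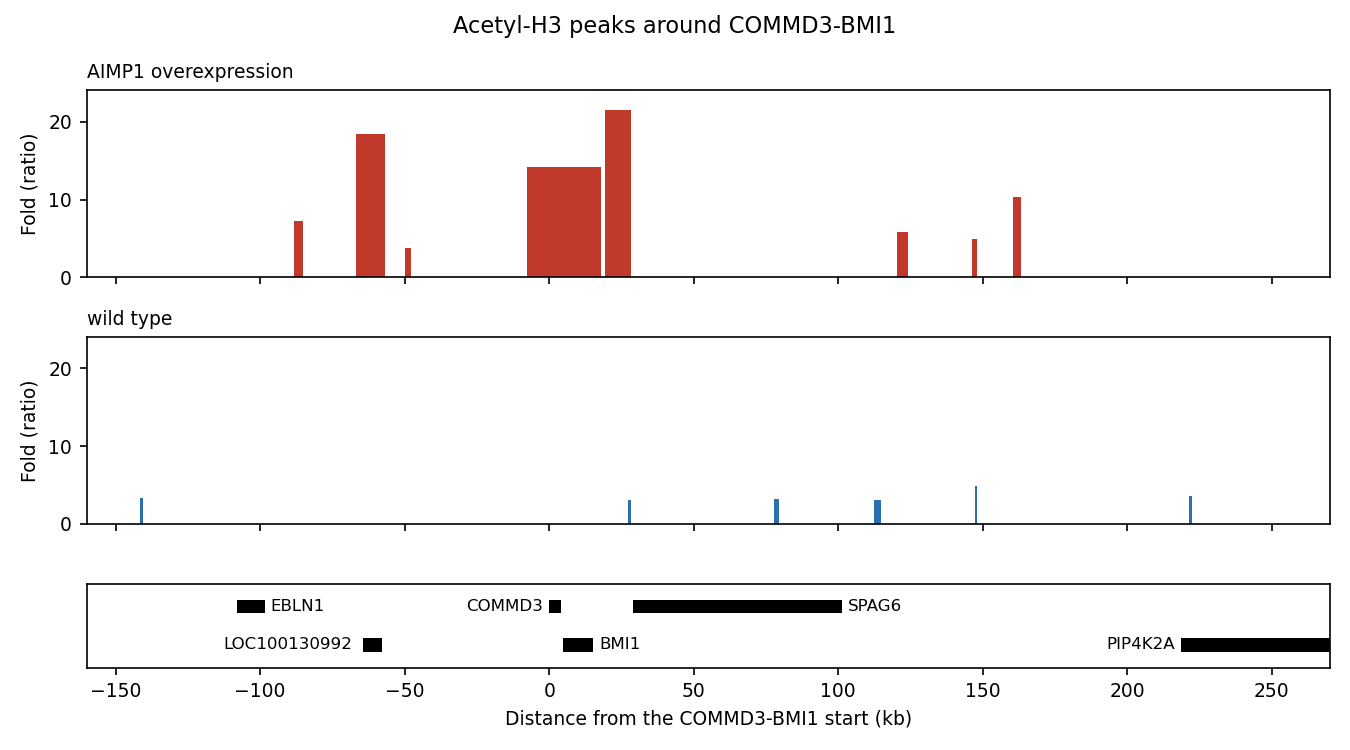
Peaks around COMMD3-BMI1, as bars whose width is the width of the peak and whose height is the authors' fold enrichment, against distance in kb from the COMMD3-BMI1 start, with overexpression above, wild type below and selected RefSeq genes at the bottom. The widest overexpression peak spans COMMD3 and BMI1 and is followed after 1591 bp by the SPAG6 peak; the wild-type list has no peak over either gene.

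By the authors' annotation 7 of the 9 names had promoter peaks after AIMP1 overexpression and 2 had them in wild type. The same held for 33.9% and 7.4% of 19970 protein-coding genes. COMMD3-BMI1, PCGF3, EZH1, EED and SUZ12 were overexpression-only, as were 28.5% of coding genes. RNF2 and EZH2 were shared, as were 5.39%, and no name was wild-type-only, as were 2.01%. Among the 7965 genes of any kind that had promoter peaks at all, 79.5% were overexpression-only, so 5 of 7 names is near the background. Counting peaks of any place, 4 names had peaks after overexpression alone (26.8% of coding genes), 3 under both conditions (9.28%) and 0 in wild type alone (5.21%); EED moved to the second class by its distal wild-type peak. In that count 7 names had overexpression peaks (36.1%) and 3 wild-type peaks (14.5%). Every one of the 8 overexpression peaks of these genes was in the promoter class within 1 kb of a start. They were 709 to 25637 bp wide with folds of 6.58 to 14.25. Of the 8, 6 had a fold above 7.34, the median of all overexpression peaks, and 2 overlapped a wild-type peak, where 11.9% of all overexpression promoter peaks did. Both wild-type promoter peaks of the names overlapped an overexpression peak, as did 56.6% of all wild-type promoter peaks. Of the 4 wild-type peaks of the names, 1 had a fold above 4.47, the median of all wild-type peaks.

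Of the 2 ubiquitin ligases of PRC1, RNF2 had a promoter peak in each library, and RING1 lay beside peaks given to a neighbour. RNF2, also named RING1B, had an overexpression peak on chromosome 1 from 185045003 to 185046789 (1787 bp, fold 8.39, p 3.79e-12). Its wild-type peak (185045557 to 185046619) was 1063 bp wide, with fold 3.59 and p 5.96e-05. It lay wholly inside the overexpression peak, and both peaks covered the RefSeq start, which the wild-type one reached by 1 bp. Their summits were 535 bp apart.

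RING1, the paralogue of RNF2, was not named for any peak. One overexpression peak given to the microRNA gene MIR219A1 (chromosome 6, 33207390 to 33210027, 2638 bp, fold 16.13, p 1.16e-25) covered the RefSeq start of RING1. Its fold was higher than that of any peak annotated to the other names, and ranked 129 in its list. A wild-type peak given to MIR219A1 (33207547 to 33208242, 696 bp, fold 5.53, p 1.25e-05) ended 258 bp before that start, and its summit was 13 bp from the annotated start of MIR219A1. It too lay wholly inside the overexpression peak, with summits 454 bp apart. MIR219A1 and the start of RING1 lie so close that the peaks cannot be given to 1 of them.

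Called by any peak within 1 kb of a RefSeq start, a rule chosen after seeing the data, all 9 names had a peak after overexpression and 3 (RING1, RNF2 and EZH2) in wild type. The shares were 43.0% and 6.87% of 15812 protein-coding genes with such a start. By this rule 6 names had the peak after overexpression alone (37.2% of those genes), 3 under both conditions (5.81%) and 0 in wild type alone (1.06%). BMI1 and COMMD3-BMI1 shared 1 peak, so the 9 names are not 9 separate places.

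PCGF3, the RING finger partner of RING1 or RNF2 in a variant form of PRC1, had a strong but narrow overexpression peak on chromosome 4 from 705427 to 706694. Its p was 4e-15. Its fold of 12.58 was at percentile 93.9 of the list, while its width of 1268 bp was at percentile 29.0. The nearest wild-type peak was 460407 bp away.

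EZH2, the main methyltransferase of PRC2 in dividing cells, had the highest fold among peaks annotated to the names. Its overexpression peak on chromosome 7, from 148882588 to 148886000, was 3413 bp wide with fold 14.25 and p 1.05e-62, which ranked 77 in the list. It covered both RefSeq starts of the gene, and its summit lay 709 bp before the upstream one. The wild-type promoter peak (148884646 to 148885785, 1140 bp, fold 3.63, p 0.000435) lay inside it and ended 355 bp before that start. Summits were 310 bp apart. The wild-type list gave EZH2 another peak, 37695 bp from a start and in intron 9 of 21 of the neighbour CUL1 (fold 3.53, p 0.000225), so this peak lies in the body of another gene.

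EZH1, the paralogue of EZH2 and the less active methyltransferase, had the lowest fold among the overexpression peaks of these genes. Its peak on chromosome 17, from 42743699 to 42745505, had 1807 bp and a p of 7.19e-08, and its fold of 6.58 was below the list's median of 7.34. No wild-type peak lay within 28420 bp of it. The paralogues thus differed in the overexpression list, with EZH2 at percentile 97.0 and EZH1 at percentile 36.4 of fold, and this ranking within 1 list carries no test. Within 50 kb of their starts, overexpression peaks covered 3413 bp at EZH2 and 4721 bp at EZH1, and wild-type peaks covered 1140 bp at EZH2 and 761 bp at EZH1.

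EED, the subunit that binds methylated lysine 27 and stimulates the enzyme, had an overexpression peak of 2227 bp over its start (chromosome 11, 86244091 to 86246317, fold 11.21, p 1.49e-15). Its wild-type peak was elsewhere, 32818 bp upstream between genes (86211054 to 86211726, 673 bp, fold 5.08, p 0.000195), with no overexpression peak over it. Its summits in the 2 libraries thus mark different places.

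SUZ12, the subunit that holds PRC2 together, had 2 narrow overexpression peaks on chromosome 17 on either side of a gap of 82 bp. The first (31936036 to 31936870, 835 bp, fold 9.43, p 4.51e-06) ended 148 bp before the annotated start and the second (31936953 to 31937661, 709 bp, fold 6.81, p 1.55e-05) covered it. Joined they would span 1626 bp. Among the 9780 overexpression peaks, 159 gaps between neighbours were as short or shorter. At any distance, 704 of 7497 genes (9.39%) had more than 1 overexpression promoter peak. The nearest wild-type peak was 92952 bp away.

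**Figure D3:**
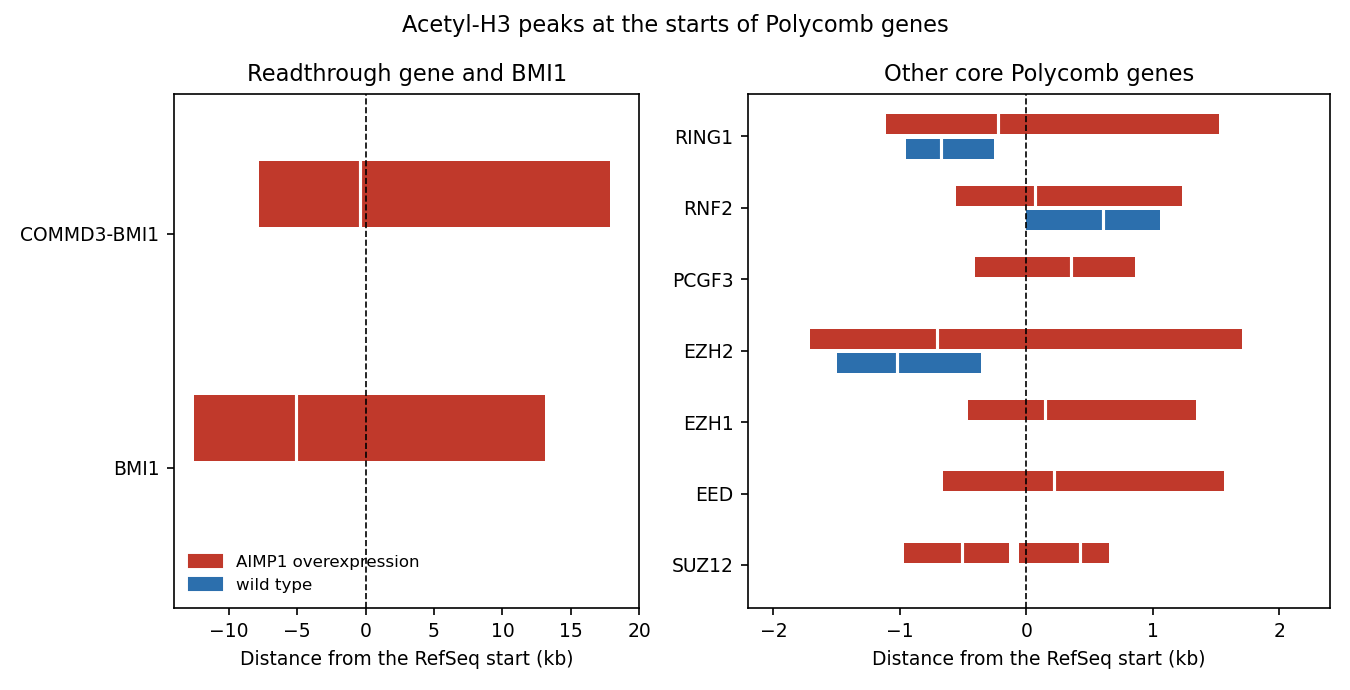
Extent of each peak within 1 kb of a RefSeq start (dashed line), in kb along the direction of the gene, with overexpression peaks in red above wild-type peaks in blue and the summit as a white line. RING1, RNF2 and EZH2 each have a wild-type peak inside the overexpression peak, COMMD3-BMI1 and BMI1 show the same 25637 bp peak, and no wild-type peak is listed at the others.

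Where both libraries had a peak at RNF2, EZH2 or RING1, the overexpression peak was 1.68, 2.99 and 3.79 times as wide as the wild-type one. Over 1019 overlapping pairs at wild-type promoter peaks the median ratio of overexpression to wild-type width was 1.93. The wild-type peak lay wholly inside the overexpression peak in 45.4% of these pairs, and in all 3 of these genes. The median distance between summits was 517 bp over all pairs. The pairs at Polycomb genes are 3 loci and were not tested against the rest.

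**Figure D4:**
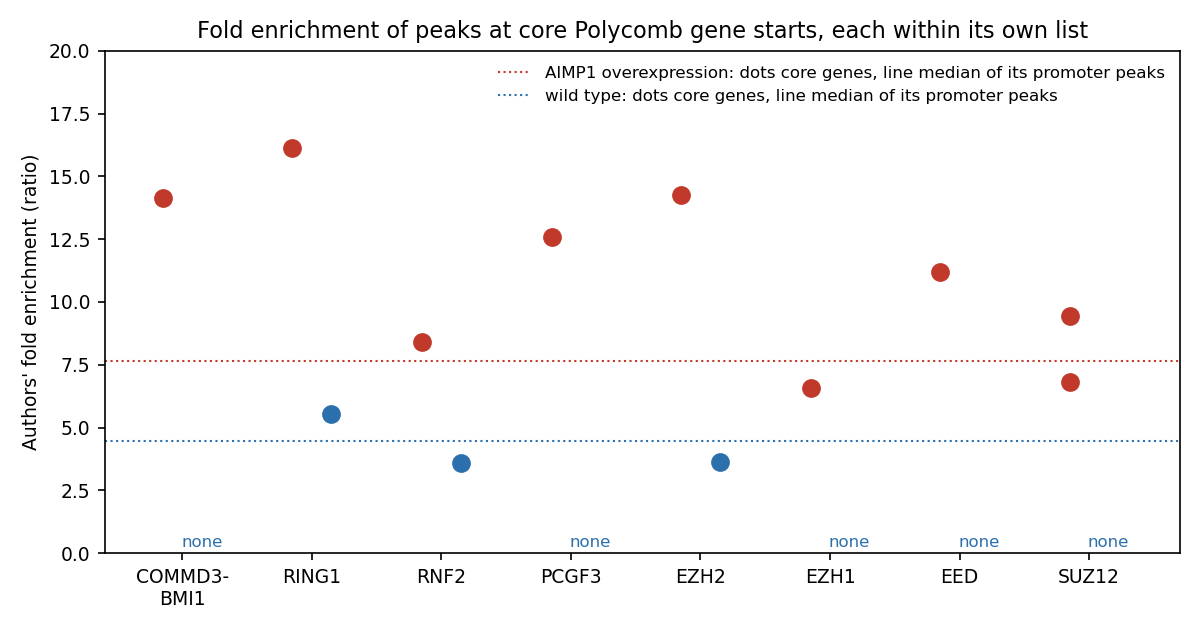
Authors' fold enrichment of each peak within 1 kb of a RefSeq start, with overexpression in red left of wild type in blue, and dotted lines at the median fold of all promoter peaks in each list (7.65 and 4.47). RING1, EZH2 and COMMD3-BMI1 are highest in the overexpression list, and EZH1 and 1 SUZ12 peak lie below its median. In the wild-type list EZH2 and RNF2 lie below the median and RING1 above it. Folds of the 2 lists are not on a common scale.

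The wider Polycomb machinery was read from 5 lists of 46 further genes. Of these, 25 were overexpression-only, 2 were shared, 1 was wild-type-only and 18 had no promoter peak. The overexpression-only share was 28.5% over all coding genes and 79.5% over genes with a promoter peak, and 25 of the 28 genes with a promoter peak here is near the second share. Within the lists below, the overexpression-only genes were 6 of 7 with a promoter peak among further genes linked to PRC2 and 5 of 6 in canonical PRC1. They were 8 of 8 in variant PRC1 and 5 of 6 in the H2A deubiquitinase list. These counts are too small to set apart from that share. By annotated peaks of any place 8 of the 46 had peaks under both conditions, 22 after overexpression alone and 1 in wild type alone. Over all coding genes these shares were 9.28%, 26.8% and 5.21%. These lists too were drawn up with results of these data known. The 27 with an overexpression promoter peak had folds of 6.37 to 15.72 with a median of 8.91, beside a median of 7.86 over 7497 genes with such a peak. None of their strongest promoter peaks came near the width of the COMMD3-BMI1 peak; the widest, at BCOR, had 7095 bp.

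Among 10 accessory subunits of PRC2, 6 were overexpression-only and 1 was shared. AEBP2, which anchors the complex to nucleosomes, had a fold of 12.28, PHF1, a reader of methylated histone H3, had 11.09, EPOP had 7.47 and JARID2, which helps to recruit the complex, had 7.16. PHF19, a relative of PHF1, had the highest fold of the 46 genes, 15.72 in a peak 3126 bp wide (p 2.47e-41), and a wild-type promoter peak of fold 3.55 and p 9.51e-06 inside it. Another wild-type promoter peak of PHF19 (120892183 to 120893052, fold 4.65, p 0.000716) did not overlap it. RBBP4, RBBP7 and EZHIP had no annotated promoter peak. The start of RBBP4 was nonetheless covered by an overexpression peak of fold 12.28 given to its neighbour ZBTB8OS.

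Of 12 genes of canonical PRC1, 5 were overexpression-only: SCMH1, a homologue of fly Sex combs on midleg (fold 11.0), the Polyhomeotic gene PHC3 (10.96), PCGF2, the closest relative of BMI1 (9.26), and the chromodomain genes CBX2 (7.34) and CBX6 (6.81). CBX8, another chromodomain subunit, was wild-type-only, by a peak 2806 bp before its start (fold 3.91, p 0.000226). The overexpression list also gave CBX8 a peak, but 11257 bp upstream between genes (fold 12.05, p 3.12e-11). PHC2 had no annotated peak, and its start was covered by an overexpression peak of fold 5.7 given to LOC101929464.

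Of 14 genes of variant PRC1, 8 were overexpression-only and the other 6 had no promoter peak. PCGF5, PCGF6 and AUTS2 also had wild-type peaks outside promoters. PCGF1 had a fold of 13.62, and BCOR, the corepressor that PCGF1 binds, had 12.05 (p 8.18e-60). KDM2B, which brings this form to CpG islands, had 9.96, and FBRS had 8.91. PCGF5 and PCGF6 had overexpression promoter peaks of fold 8.38 and 6.37. Of the enzymes that undo Polycomb marks, KDM6A, a demethylase of lysine 27, was overexpression-only (8.91) and KDM6B had no promoter peak. Of 8 genes of the complex that removes ubiquitin from histone H2A, 5 were overexpression-only, led by ASXL1 (9.96), FOXK1 (8.91), FOXK2 (8.91) and MBD6 (7.34). ASXL2, which was overexpression-only, and MBD5, which had no promoter peak, had wild-type peaks outside promoters. BAP1, its enzyme, was shared (fold 7.86 after overexpression, 4.57 in wild type), and its peaks did not overlap.

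**Figure D5:**
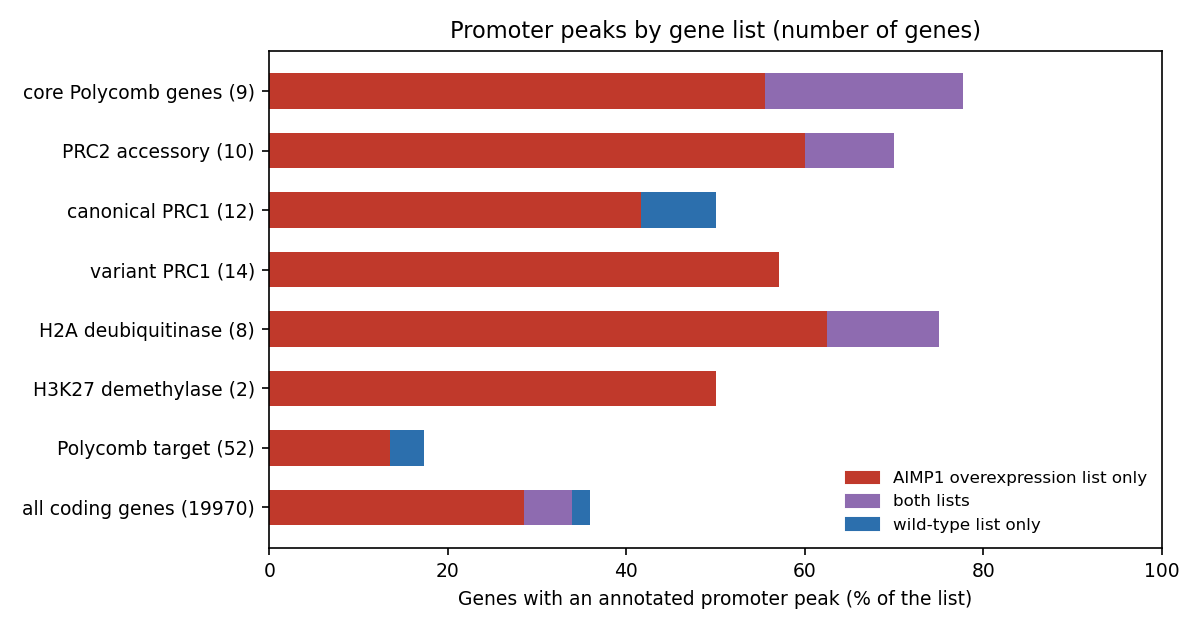
Share of each gene list that is overexpression-only, shared or wild-type-only by annotated promoter peaks, in percent of the list, with the number of genes in brackets and all protein-coding genes at the bottom. The core names and the 5 lists of machinery have overexpression-only shares above the 28.5% of coding genes, and the Polycomb target genes lie below it.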

How the data were processed

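Acetyl-H3 ChIP-seq peak lists from 1 library of AIMP1-overexpressing and 1 of wild-type H929 cells were analysed; the input libraries were not analysed here. Bowtie2, FastQC, Trimmomatic and cutadapt appear in the submitters' processing notes. For the peak caller, threshold, build and use of inputs, nothing is given in the sources used here. The deposited fold is the authors' ratio of a peak over a background, per the file headers, which do not say what the background was. The deposited p-value is the authors' value per peak, at most 0.001 in both lists. Read depth is unknown.

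Peaks were taken by gene symbol. A gene was shared if each list annotated a promoter peak to it, whether or not these overlapped. Peaks overlapped if they had at least 1 bp in common, a step tested on simulated data. Coordinates are those of the lists, counted from 1. RefSeq (GRCh38.p14) served for gene extents, starts and promoter sequences: 99.9% of 8083 matched identifiers (overexpression) and 99.8% of 3489 (wild type) fell at the same gene. The authors' start was within 1 kb of a RefSeq start for 88.2% (overexpression) and 63.7% (wild type) of the genes with a RefSeq start, which limits counts by RefSeq start. Motifs were searched in the 250 bases before each start. Ranks and percentiles are within a list. Scripts ran in Python 3.11.15 with numpy 2.4.6, pandas 2.3.3, matplotlib 3.10.9 and scipy 1.17.1.

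Members and lists were chosen with earlier results of these data known. Named were every member, the 4 next widest peaks, every gene annotated to a peak within 250 kb of the domain, the gene given a peak at a member's start and, from each list, genes with a wild-type promoter peak and the 4 highest folds in the overexpression list only; CBX6, PCGF5, PCGF6, HOXB6, HOXB8, HOXD12, CDKN2B, KDM6B and the genes without a promoter peak, and those whose start lies in a peak given to a neighbour were added after their values were seen. Alternatives were other promoter, overlap, threshold, list length and merging rules.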

Additional observations from a re-analysis of the deposited data

How the results depend on the processing

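Of 32 alternative values for the counts, width and rank above, 28 stayed within 1.5 times the reported value. Some of these had no room to move. All 8 overexpression peaks of the names already lay within 1 kb of a start, and merging cannot narrow a peak. The count of 28 is thus no measure of stability. At p of at most 1e-05, which 6566 overexpression and 543 wild-type peaks met, 0 names had a wild-type promoter peak and 0 overexpression peaks of the names overlapped a wild-type peak. With lists of equal length, the 4828 peaks of lowest p in each, 3 names were overexpression-only, 2 were shared and 4 had no promoter peak. The names with an overexpression promoter peak thus fell from 7 to 5. Shares over all genes were not computed for these 2 settings, so these counts have no background to be read against. With peaks merged when at most 12500 bp apart the COMMD3-BMI1 region ranked 36 in width. Counting peaks within 1 kb of a RefSeq start was chosen after seeing the data; 40 of the 46 further genes have such a start listed. No paired analysis was possible because there was a single library in each group. A gene without a listed peak can still carry acetylation below the authors' threshold.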

Other observations

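Genes that Polycomb complexes are known to silence were counted by their annotated acetyl-H3 promoter peaks. Of 52 such genes, most of them HOX genes, 7 were overexpression-only, 2 were wild-type-only and 43 had no promoter peak. Of all coding genes 28.5% were overexpression-only, 2.01% wild-type-only and 5.39% shared. An overexpression promoter peak was thus annotated to 7 of the 52 and a wild-type one to 2, beside 33.9% and 7.4% of coding genes. Counting peaks of any place, 7 had them after overexpression alone (26.8% of coding genes), 4 in wild type alone (5.21%) and 0 under both conditions (9.28%). Of the 7 with an overexpression promoter peak, 4 lay in the HOXB cluster on chromosome 17. HOXB9 had a fold of 14.53 in a peak 4543 bp wide (p 7.4e-50), HOXB3 had 10.53, HOXB7 had 7.76 and HOXB6 had 5.66. The others were CCND2, a D-type cyclin (9.71), HOXD12 (6.81, p 0.000998) and CDKN2B, the inhibitor p15 (5.76). HOXC6 (5.02, p 0.000794) and HOXD4 (4.3, p 0.000802) were wild-type-only. The p of these 2 peaks and of the HOXD12 peak was close to 0.001, the highest in either list. At p of at most 1e-05, 5 of the 52 genes were overexpression-only and 0 wild-type-only. No promoter peak was annotated to a gene of the HOXA cluster in either list. The wild-type list had an intronic peak at HOXB8 (5.29, p 2.91e-05).

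CDKN2A, a cell cycle inhibitor gene known as a target of BMI1, had no annotated peak, but peaks given to CDKN2B-AS1 covered a RefSeq start of it in each library. After AIMP1 overexpression the peak (chromosome 9, 21991718 to 21996712) measured 4995 bp, with fold 11.7 and p 6.98e-41. The wild-type peak inside it (21994621 to 21995863) measured 1243 bp, with fold 5.14 and p 1.63e-07.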
